A study of Canis lupus familiaris and Dasypus novemcinctus and Ornithorhynchus anatinus with 3 samples.

Results

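The gene lines of a single messenger RNA library from the pregnant endometrium (the lining of the uterus) of the nine-banded armadillo, Dasypus novemcinctus, were ranked by read share. All 12335 gene lines of the armadillo table entered, of 50106 lines in the tables of the 3 species of the series. The series compares dog, armadillo and platypus with 1 such library per species, and the other 2 tables were used here for their gene symbols only. The labels name no treatment and no genotype, and the sources used here give no stage of pregnancy, no age and no count of animals. With 1 library there is no replicate check and no test, and the 95% intervals below cover counting error only.

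The endometrium is built of a surface epithelium with glands, a fibroblast-rich stroma, vessels and migrant leukocytes, and it rests on the smooth muscle of the uterine wall. Progesterone acting through its receptor prepares this tissue for implantation, and in many placental mammals the stroma around the embryo then remodels its matrix and vessels. Armadillos are known for delayed implantation, for litters of genetically identical young and for a placenta in which maternal blood reaches the fetal villi directly.

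Levels are given as CPM, the reads of a gene per 1000000 reads of the library. The reads summed to 13218476, so that 1 read equals 0.0757 CPM and 2 CPM, the limit used for calling a gene expressed, needs 27 reads. CPM is not divided by gene length, so the order of lines is an order of read share and long genes stand higher in it than in an order of transcripts. Every line has 1 read or more, and a gene that is not listed has no value here. Such a gene may lack reads, lack annotation or be among the lines without a symbol, and these cannot be told apart. Of all lines, 10050 (81.5%) reached 2 CPM, 1869 (15.2%) reached 100 CPM and 128 (1.04%) reached 1000 CPM, and the median line stood at 18.99 CPM. These shares are the background for the counts below. Lines without a symbol (1663) or with one that a spreadsheet had turned into a date (17) held 10.2% of the reads. In bulk tissue, fewer cells of a type and less RNA per cell cannot be told apart. Whether low lines reflect read mapping or gene models was not tested.

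The first 10 lines hold genes of the matrix, of smooth muscle, of translation, of mesenchymal cells, of endothelium and of growth factor binding, and 2 lines without a symbol. FN1, which encodes the matrix protein fibronectin (ENSDNOG00000000626), had 291820 reads and stood at 22077 CPM (95% interval 21997 to 22157), or 2.21% of the library. EEF1A1, the elongation factor that brings transfer RNA to the ribosome, followed at 21062 CPM (95% interval 20984 to 21141). TAGLN, the actin-binding protein transgelin of smooth muscle, was the third line at 10999 CPM (95% interval 10943 to 11056), and MYH11, the smooth muscle myosin heavy chain, was at 10803 CPM (95% interval 10747 to 10859). VIM, the intermediate filament of mesenchymal cells, stood at 10231 CPM and IGFBP2, a secreted binding protein for insulin-like growth factors (IGF), at 9229.8 CPM. COL3A1, the chain of type III collagen, stood at 7623 CPM. PLVAP, which forms the diaphragms of fenestrated endothelium, completed the 10 lines with most reads at 7268 CPM (95% interval 7222 to 7314). Each of the 5 markers given for this library (FN1, TAGLN, MYH11, VIM and PLVAP), which were picked with its ranking known, was among the first 10 lines. The remaining 2 of these lines carry no symbol, ENSDNOG00000006719 at 10932 CPM and ENSDNOG00000008776 at 10619 CPM, and their products are not named here.

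Ranks 11 to 30 hold further matrix, muscle and translation genes, genes of the cytoskeleton, of G protein signalling and of the lysosome, and 3 lines without a symbol. Basement membrane and stromal matrix were represented by COL1A2 (4782 CPM), COL4A2 (4545), COL4A1 (3815), tenascin C (TNC, 4043), and fibulin 1 (FBLN1, 2833). The muscle filament gene DES (desmin) stood at 3160.4 CPM and FLNC, the muscle filamin, at 3037 CPM. Genes of the general cytoskeleton included the non-muscle myosin MYH9 at 4585 CPM, the integrin adaptor talin (TLN1) at 2995, the spectrin SPTBN1 at 2792 and the dynein heavy chain DYNC1H1 at 3102. ADAMTS1, a secreted protease that cuts versican, stood at 3071 CPM (95% interval 3041 to 3101). GNAS, the stimulatory G protein subunit, stood at 3345 CPM and PSAP, the lysosomal saposin precursor, at 3287 CPM. Translation was represented by EEF2 (5540.4 CPM) and the ribosomal protein gene RPL4 (2788 CPM). Together the first 10 lines took 12.1% of all reads (95% interval 12.07 to 12.10), the first 30 took 19.3% and the first 100 took 31.2%. The first 397 lines held 50% of the reads.

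**Figure D1:**
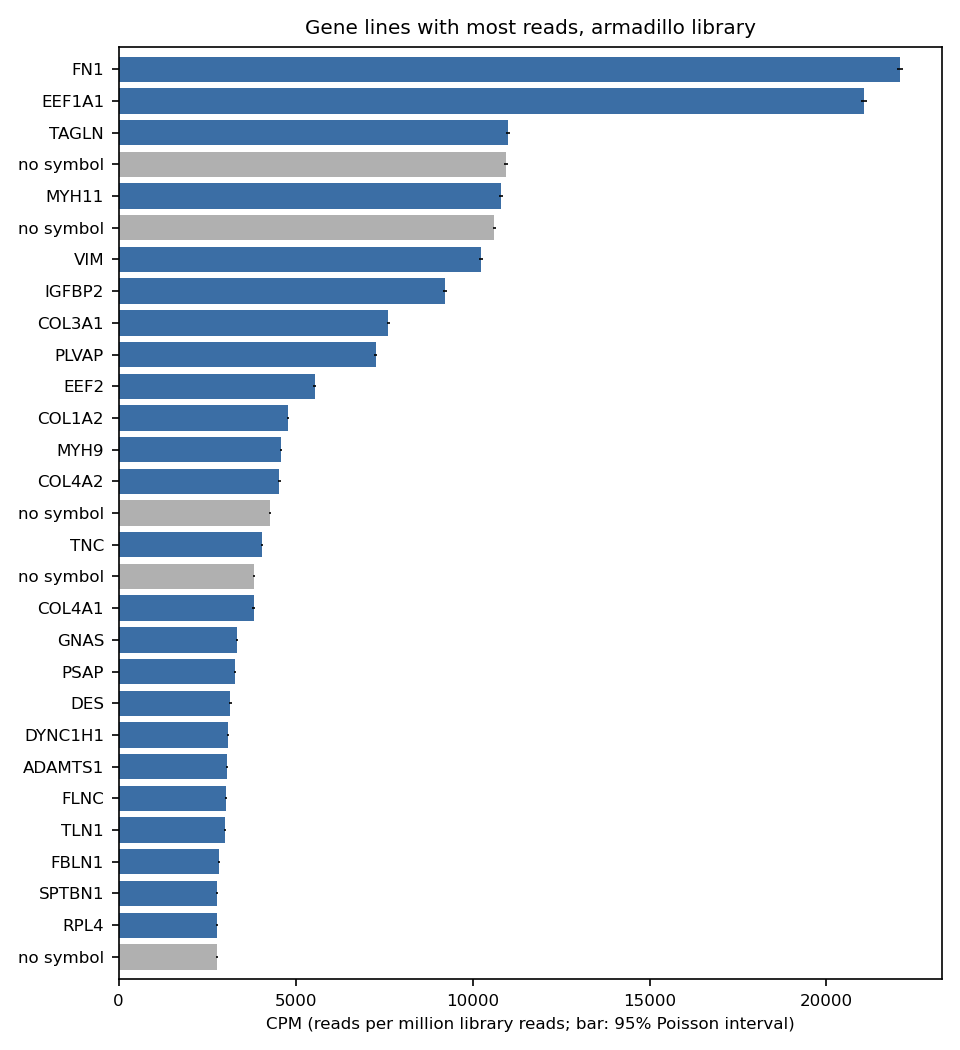
Horizontal bars give the CPM of 29 of the 30 gene lines with most reads, from 0, with 95% Poisson intervals as thin lines. Grey bars are 5 lines without a gene symbol. FN1 and EEF1A1 stand apart at 22077 and 21062 CPM, and the bars then fall to 2781 CPM at rank 30.

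Smooth muscle markers had the highest median of all cell type lists. These lists were chosen with results of this library known. TAGLN, MYH11, FN1, VIM and PLVAP, picked with its ranking known, are among their members. The order and medians of the lists therefore describe the library only. Of 30 smooth muscle members 19 were listed. All 19 (100%) reached 2 CPM and 18 (94.7%) reached 100 CPM, against 81.5% and 15.2% of all lines. The smooth muscle median was 1092 CPM against 18.99 CPM over all lines. Besides TAGLN, MYH11, DES and FLNC, the intermediate filament synemin (SYNM) stood at 1436 CPM, MYLK, the kinase that activates smooth muscle myosin, at 1339, the tropomyosin TPM1 at 1339 and caldesmon (CALD1), which restrains actomyosin, at 853. ACTA2, the smooth muscle actin, was lower in read share, at 161 CPM (95% interval 155 to 168). The lowest listed member was the adhesion adaptor LPP at 74.2 CPM. Calponin (CNN1), ACTG2, LMOD1, SMTN, MYL9 and the cofactor MYOCD were not listed. The list took 3.98% of the reads. The label names endometrium, and how much muscle of the uterine wall or of vessels the sample held was not tested.

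Stromal and vascular markers followed. Stromal fibroblast markers had a median of 430.2 CPM, with 18 of 20 listed. Of these 17 (94.4%) reached 2 CPM and 14 (77.8%) reached 100 CPM, against 81.5% and 15.2% of all lines. COL1A1 stood at 1895 CPM, the gelatinase MMP2 at 2534, the small proteoglycan decorin (DCN) at 1668, periostin (POSTN) at 762 and the fibroblast surface gene THY1 at 473. The growth factor receptor PDGFRA stood at 79.7 CPM, whereas FAP (3.25 CPM) and the transcription factors HAND2 (3.63) and TCF21 (0.605, 8 reads) lay near or under the limit. PDGFRB was not listed. Among pericyte markers 7 of 12 were listed with a median of 69.4 CPM. MFGE8, a secreted protein that marks dying cells for uptake, held most of the list's reads at 2015 CPM. MCAM stood at 293 CPM and RGS5, a regulator of G protein signals in mural cells, at 36.4 CPM.

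Vascular endothelial markers had a median of 323 CPM. Of 18 listed members 17 (94.4%) reached 2 CPM and 15 (83.3%) reached 100 CPM, against 81.5% and 15.2% of all lines. VWF, which carries clotting factor VIII, stood at 1363 CPM, CLEC14A at 952, the protein C receptor PROCR at 684 and P-selectin (SELP), which captures leukocytes, at 624. Nitric oxide synthase of endothelium (NOS3) stood at 504 CPM. The growth factor receptors were present with TEK (the angiopoietin receptor) at 430.5 CPM, FLT1 at 351 and KDR at 257, both receptors for vascular endothelial growth factor. S1PR1, a sphingosine phosphate receptor, had 2 reads, and PECAM1, CDH5, TIE1 and CLDN5 were not listed. Of 14 arterial and venous genes 12 were listed, with a median of 119.7 CPM. Of those known from veins, NRP2 stood at 435 CPM, the receptor EPHB4 at 269 and the factor NR2F2 at 185. Of those known from arteries, NRP1 stood at 353 CPM, NOTCH1 at 194, its ligand JAG1 at 187, the gap junction gene GJA5 at 54.8, DLL4 at 15.7 and EFNB2 at 14.3, and BMX, HEY1 and HEY2 stood at 2.19, 0.908 and 0.227. Of 8 lymphatic markers 6 were listed, and 2 of these (33.3%) reached 100 CPM, against 15.2% of all lines. The lymphatic median was 5.18 CPM, under the 18.99 CPM of all lines. The hyaluronan receptor LYVE1 stood at 151 CPM (95% interval 144 to 158). PROX1, the lymphatic transcription factor, stood at 6.20 CPM, CCL21 at 4.16 and PDPN at 2.57.

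Epithelial markers stood low in read share. Of 22 listed members 21 (95.5%) reached 2 CPM, against 81.5% of all lines. Their median was 7.34 CPM, under the 18.99 CPM of all lines. The keratins of simple epithelium were the exception, with KRT7 at 538 CPM (95% interval 526 to 551) and KRT18 at 280.3 CPM (95% interval 271 to 289), and the desmosome gene DSP stood at 147 CPM. The adhesion genes EPCAM at 7.72 CPM (95% interval 6.29 to 9.37) and CDH1 (E-cadherin) at 6.81 CPM (95% interval 5.47 to 8.37) rested on 102 and 90 reads. ST14, a membrane protease of epithelia, stood at 4.61 CPM and the epithelial factor GRHL2 at 6.05. KRT8, KRT19, CLDN4 and CLDN7 were not listed. Of ciliated cell markers 13 of 20 were listed with a median of 1.97 CPM. Of these 6 (46.2%) reached 2 CPM, against 81.5% of all lines. FOXJ1, the master factor of motile cilia, was not listed, and the dynein DNAH5 stood at 4.92 CPM. TPPP3 and RFX2, which cells without motile cilia also use, stood at 188 and 26.6 CPM.

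Leukocyte markers were listed for 25 of 40 members with a median of 4.31 CPM, and 19 (76%) reached 2 CPM, against 81.5% of all lines. Macrophage genes led: the complement subunit C1QB stood at 133 CPM, the receptor CSF1R at 113 CPM (95% interval 107 to 119), CD68 at 93.3 and the haemoglobin scavenger receptor CD163 at 70.4. The pan-leukocyte phosphatase PTPRC stood at 15.5 CPM (95% interval 13.5 to 17.8). T cell genes were at a similar or lower share, with CD3E at 14.2 CPM, CD2 at 5.83 and CD8A at 4.31. NKG7, of killer lymphocytes, stood at 5.83 CPM and the joining chain of antibodies (IGJ) at 9.76. The mast cell protease CPA3 had 4 reads, and MS4A1, CD14, LYZ and GZMB were not listed.

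Markers of fetal and other tissues were read for what else the sample could hold. Of 37 trophoblast markers 19 were listed with a median of 7.57 CPM, and the first of them, KRT7 and KRT18, are also keratins of simple epithelium. GATA2, which endothelium and stroma also use, stood at 115 CPM, TFAP2C at 45.2, TFAP2A at 17.3 and HAND1 at 7.57. GCM1 (3 reads), ELF5 (1.74 CPM) and the aromatase gene CYP19A1 (4 reads) were under the limit, and GATA3, PLAC1, PEG10 and CGA were not listed. Of yolk sac and liver-type genes APOE, which macrophages also make, stood at 516 CPM and transferrin (TF) at 90.8, while AFP, ALB and TTR were not listed. ALAS2, which starts haem synthesis in red cell precursors, stood at 40.3 CPM (95% interval 37.0 to 43.9), and no haemoglobin symbol was listed. The mesothelial list held 1 listed gene, CALB2, with 4 reads, and of the nerve and Schwann cell list 4 of 12 were listed, led by UCHL1 at 14.4 CPM.

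**Figure D2:**
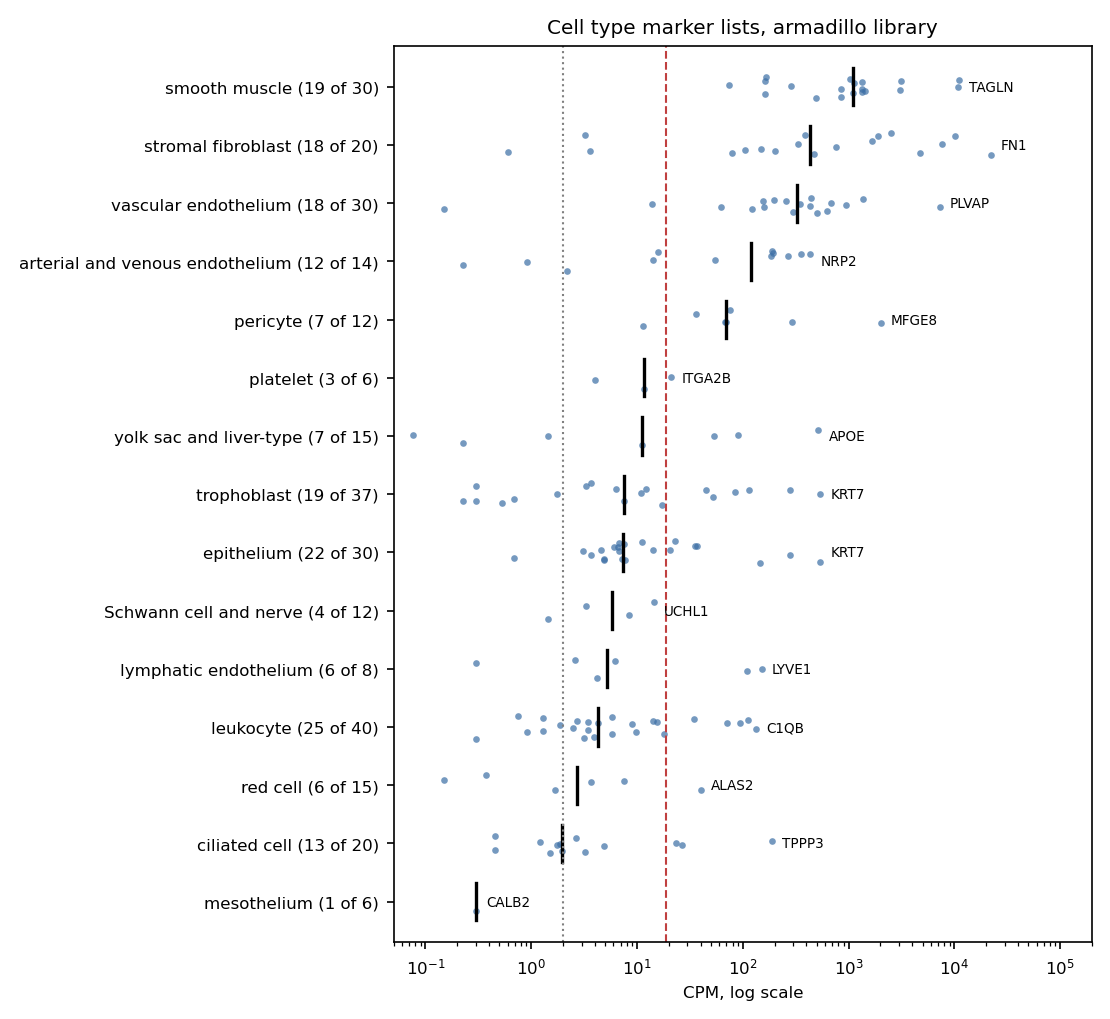
Each point is the CPM of 1 marker gene on a log axis, in rows by cell type list, with the listed members of each list in brackets. Black bars are list medians, the dashed line is the median of all lines (18.99 CPM), the dotted line is 2 CPM, and the gene with most reads is named. Smooth muscle (1092), stromal fibroblast (430.2) and vascular endothelium (323) have the highest medians, and epithelium (7.34) and leukocytes (4.31) lie left of the dashed line. The lists were chosen with results of this library known.

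Secreted products held about as many of the reads as the first 10 lines, some of which they include. After receptors, membrane and intracellular proteins were taken out of the secreted product lists, 463 genes remained, of which 282 were listed. They held 12.9% of the reads (95% interval 12.90 to 12.93), and 104 of the listed genes (36.9%) reached 100 CPM against 15.2% of all lines. The genes of these lists were chosen with results of this library known, so these shares describe the library only.

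Collagens came first in the interstitial and basement membrane types. Of 37 chains 24 were listed, and 20 of these (83.3%) reached 2 CPM, against 81.5% of all lines. The 24 together took 2.66% of the reads. COL6A3, a chain of microfibrillar type VI collagen, stood at 1780.2 CPM, COL12A1 at 523, COL5A2 at 511, COL14A1 at 334 and COL15A1 at 172. The cartilage chain COL11A1 had 3 reads and COL10A1 7 reads. Laminins, which build the basement membrane with type IV collagen, were listed for 11 of 12 chains. LAMB1 and LAMB2 stood at 1484 and 1312 CPM. LAMA2 (1136) and LAMA4 (717), chains of muscle and vessel basement membranes, took more reads than LAMA3 (93.8) and LAMB3 (11.4), chains of epithelial laminin.

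Matrix glycoproteins and proteoglycans took 4.92% of the reads, with 44 of 47 listed members (93.6%) at 2 CPM or more, against 81.5% of all lines. After FN1, TNC and FBLN1 came perlecan (HSPG2, 2612 CPM), SPARC (1749), SPARCL1 (1686), the large proteoglycan versican (VCAN, 1560.2), LTBP1, which stores latent TGF-beta (1508), thrombospondin 1 (THBS1, 1393) and fibrillin 1 (FBN1, 796). Elastin (ELN) stood at 260.2 CPM. Enzymes that fold and crosslink collagen were listed for 17 of 22 genes, all (100%) at 2 CPM or more, against 81.5% of all lines. The collagen chaperone SERPINH1 stood at 1176 CPM, ADAMTS2, which trims procollagen, at 1039 and the lysyl oxidase LOXL2 at 737.

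The IGF binding proteins were the growth factor products with most reads. Next to IGFBP2 at 9229.8 CPM (95% interval 9178 to 9282), IGFBP5 stood at 2041 CPM (95% interval 2017 to 2066), IGFBP3 at 790.2 CPM, IGFBP4 at 710.4 and IGFBP6 at 106. IGFBP1, the binding protein that marks decidual cells in primates, stood at 18.5 CPM (95% interval 16.3 to 21.0). The ligand IGF1 stood at 47.8 CPM (95% interval 44.2 to 51.7), and IGF2 was not listed. The receptors IGF2R, which clears IGF2, INSR and IGF1R stood at 781, 451 and 88.9 CPM. HTRA1, a protease that cuts matrix and binding proteins, stood at 739 CPM, while the pappalysin PAPPA, which cuts IGFBP4, stood at 12.3. The stanniocalcins STC2 and STC1, glycoprotein hormones that inhibit PAPPA, stood at 517 and 134 CPM.

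Protease inhibitors had a median of 60.3 CPM and secreted proteases one of 105 CPM. SERPING1, the inhibitor of complement C1, stood at 1251 CPM, TIMP3, a matrix-bound inhibitor of metalloproteases, at 989.6, the intracellular granzyme inhibitor SERPINB9 at 722 and SERPINE2 at 505. Among the proteases MMP2 and ADAMTS1 came first, followed by PRSS23 at 1269.7 CPM, the tissue plasminogen activator PLAT at 672, MMP14, which activates MMP2, at 565, and ADAMTS9 at 379. MMP7, a metalloprotease of epithelia, stood at 102 CPM. MMP9 and MMP3 were not listed, and MMP13 had 1 read. Of complement genes C1S stood at 626 CPM and C1R at 446, whereas C3 stood at 7.94 CPM and C5, C6 and C9 lay under the limit.

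Of the listed signals to vessels and matrix cells, 23 of 26 (88.5%) reached 2 CPM, against 81.5% of all lines. Of the CCN proteins CYR61 stood at 1071 CPM, CTGF at 946 and NOV at 475. ANGPT2, the angiopoietin that destabilises vessels, stood at 443 CPM (95% interval 432 to 455) and its counterpart ANGPT1 at 33.4 CPM (95% interval 30.4 to 36.7). The guidance genes SEMA3F and SLIT3 stood at 609 and 574 CPM and pleiotrophin (PTN) at 231. VEGFC and PGF stood at 13.8 and 4.01 CPM, and VEGFA was not listed. Of TGF-beta family genes the BMP antagonist CHRDL2 stood at 950.5 CPM (95% interval 934 to 967), FSTL1 at 473 CPM, TGFB1 at 174, follistatin (FST) at 133, BMP6 at 113 and BMP2, a stromal signal of implantation, at 76.3. Of WNT pathway genes the secreted inhibitors DKK3 (139 CPM), SFRP4 (89.0) and DKK1 (75.5), the agonist RSPO3 (124) and the ligand WNT2 (72.2) led, and WNT5A stood at 8.40. WNT4 and WNT7A were not listed. EGF and FGF ligands were low: of 13 listed members 3 (23.1%) reached 2 CPM, against 81.5% of all lines, and HBEGF had 7 reads.

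Of 41 gland secretion members 21 were listed, with a median of 19.8 CPM against 18.99 CPM over all lines. Of the listed members 19 (90.5%) reached 2 CPM and 5 (23.8%) reached 100 CPM, against 81.5% and 15.2% of all lines. ENPP2, which encodes autotaxin, the enzyme that makes lysophosphatidic acid, stood at 1808 CPM (95% interval 1785 to 1831) and GPX3, a secreted glutathione peroxidase, at 862 CPM (95% interval 846 to 878). GRP, gastrin-releasing peptide, stood at 113 CPM, osteopontin (SPP1) at 23.2 and LIF, the cytokine required for implantation in mice, at 21.7 CPM (95% interval 19.3 to 24.4). MUC1 stood at 4.84 CPM, LTF at 1.59, and AGR2, of secretory epithelia, had 1 read. PAEP, SCGB1A1, LCN2, OLFM4 and MUC16 were not listed. Of 31 listed chemokines and interleukins 18 (58.1%) reached 2 CPM and 1 (3.23%) reached 100 CPM, against 81.5% and 15.2% of all lines. The gene past 100 CPM was CCL14, a chemokine for monocytes, at 309.7 CPM (95% interval 300.3 to 319). CSF1, the macrophage growth factor, stood at 32.2 CPM and IL34, which binds the same receptor, at 12.4. The inflammatory cytokines IL1B (1.06 CPM), IL6 (0.605) and IL8 (0.454) were under the limit. Of tolerance genes galectin 1 (LGALS1) stood at 1219 CPM, galectin 3 (LGALS3) at 297, and IDO1, which degrades tryptophan, at 87.2 CPM (95% interval 82.3 to 92.4). FOXP3, of regulatory T cells, had 3 reads.

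**Figure D3:**
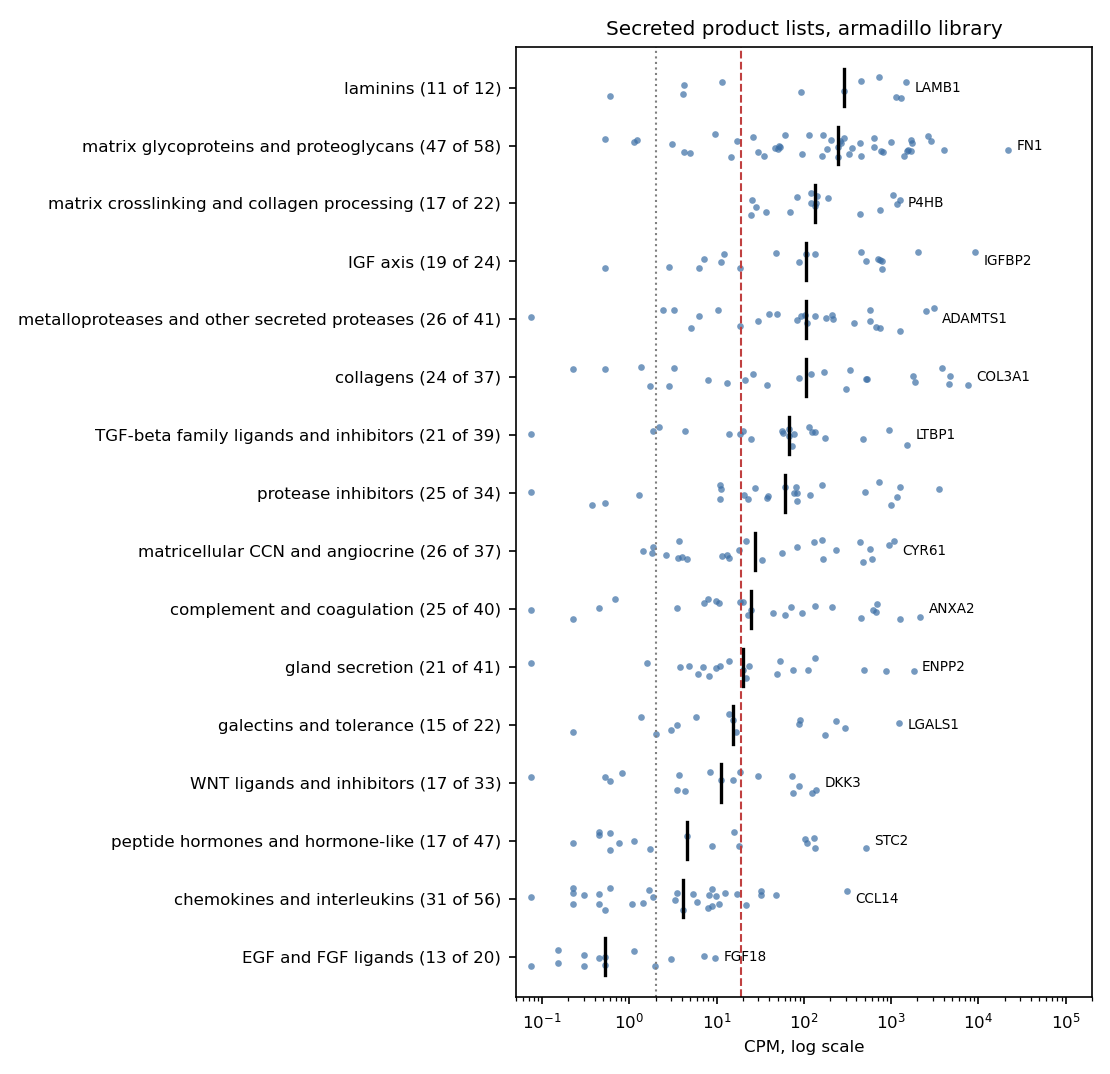
Each point is the CPM of 1 gene on a log axis, in rows by secreted product list, with the listed members in brackets and, in all rows but that of protease inhibitors, the gene with most reads named. Black bars are list medians, the dashed line is the median of all lines (18.99 CPM) and the dotted line is 2 CPM. Laminins (288) and matrix glycoproteins (245) have the highest medians, and EGF and FGF ligands (0.530) the lowest.

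Hormone pathways were read from receptor to target. PGR and ESR1, the progesterone and oestrogen receptors that define endometrium as a hormone target, were not listed in the table, nor were the targets GREB1 and IHH. ESR2, the second oestrogen receptor, stood at 1.06 CPM (95% interval 0.579 to 1.78). The glucocorticoid receptor NR3C1 stood at 52.2 CPM (95% interval 48.4 to 56.2) and the mineralocorticoid receptor NR3C2 at 18.6 CPM. The membrane progesterone-binding component PGRMC1 stood at 75.3 CPM and PGRMC2 at 10.4. The receptor cofactors NCOA1, NCOA2 and NCOA3 stood at 119, 62.8 and 66.7 CPM, the corepressor NCOR1 at 289, and the receptor chaperone FKBP4 at 63.3.

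Genes that respond to progesterone in other species were listed for 23 of 36 members. Of these 22 (95.7%) reached 2 CPM and 7 (30.4%) reached 100 CPM, against 81.5% and 15.2% of all lines. DUSP1 (249 CPM), PER1 (169), FKBP5 (163) and SGK1 (134), which glucocorticoids also induce, came first with NR2F2 and STC1. ZBTB16 stood at 60.7 CPM, FOXO1, a decidual factor, at 61.3, the amine oxidases MAOB and MAOA at 89.2 and 16.2, and HAND2 at 3.63. HOXA11, WNT4, PRL, SCARA5 and CEBPB were not listed. Of 20 oestrogen-responsive genes 10 were listed, led by EFNA1 at 149 CPM, and C3 and LTF stood at 7.94 and 1.59. Of steroid-converting enzymes 16 of 40 were listed: HSD17B11 and HSD17B4 stood at 126 and 105 CPM, and the cortisol enzymes HSD11B1, which activates, and HSD11B2, which inactivates, at 32.7 and 10.8. STAR (4 reads), CYP17A1 (3 reads) and CYP19A1 (4 reads), genes of steroid synthesis, were under the limit.

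Prostaglandin genes were listed for 28 of 35 members. PTGS1, the constitutive cyclooxygenase, stood at 329.8 CPM (95% interval 320.0 to 339.7) and PTGS2, the inducible one, at 29.8 CPM (95% interval 26.9 to 32.9). The synthases PTGES (for prostaglandin E) and PTGIS (for prostacyclin) stood at 60.0 and 25.3 CPM. Of the clearance genes the transporter SLCO2A1 stood at 99.6 CPM, PTGR1 at 183, and the dehydrogenase HPGD, with 27 reads, at 2.04 CPM (95% interval 1.35 to 2.97), on the limit. Receptors were lower in read share: PTGER4 stood at 20.4 CPM, PTGER3 at 6.13, PTGER2 at 4.39, and PTGFR, the receptor for prostaglandin F, had 4 reads. The leukotriene genes ALOX5AP and ALOX5 stood at 93.1 and 34.0 CPM.

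Of the pituitary and ovarian hormone axes, the growth hormone receptor GHR stood at 175 CPM (95% interval 168 to 182), the prolactin receptor PRLR at 4.69 CPM (95% interval 3.60 to 6.01) and the relaxin receptor RXFP1 had 7 reads. OXTR, the oxytocin receptor of uterine muscle, and the hormones PRL, OXT, RLN1 and RLN2 were not listed. Peptide hormones with a value included adrenomedullin (ADM, 132 CPM), a vessel dilator, and the natriuretic peptide NPPC (55.7), whereas PTHLH stood at 1.74. Somatostatin (SST) and GHRH, neuropeptides of the brain, stood at 8.78 and 15.7 CPM. The receptor NPR1, a guanylate cyclase that binds atrial natriuretic peptide, stood at 2186 CPM (95% interval 2161 to 2212) and rank 42 of all lines, whereas NPR2, the receptor for NPPC, stood at 195 CPM and the clearance receptor NPR3 at 23.0. NPPA, the atrial peptide, stood at 1.82 CPM, and NPPB was not listed. The leptin receptor LEPR stood at 355 CPM, and the adrenomedullin receptor CALCRL with its partner RAMP2 at 147 and 69.2.

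Implantation signalling was listed from receptor to transducer. The shared cytokine receptor IL6ST (gp130) stood at 557 CPM, LIFR at 70.3, OSMR at 99.3, JAK1 at 333 and STAT3 at 349, and SOCS3, a feedback inhibitor induced by STAT3, at 140.0. In the hedgehog pathway all 14 listed members of 17 reached 2 CPM, against 81.5% of all lines, and 1 (7.14%) reached 100 CPM, against 15.2%. SMO stood at 68.3 CPM, PTCH1 at 17.2, GLI2 at 21.0 and GLI1 at 4.31, and the ligand DHH stood at 7.72. IHH and SHH were not listed. Of the EGF receptor family ERBB2 stood at 108 CPM, EGFR at 52.9, ERBB3 at 8.40 and ERBB4 at 3.10, and LRIG1, which promotes breakdown of these receptors, at 399.7 CPM (95% interval 389 to 411). The TGF-beta receptors TGFBR2, the endothelial ACVRL1, and TGFBR3 stood at 586, 425 and 251 CPM. Retinoid genes included the retinoic acid-making ALDH1A1 (149 CPM) and ALDH1A2 (115), the degrading CYP26B1 (129) and the receptors RARA (91.2) and RARB (64.5). The vitamin D receptor VDR stood at 3.40 CPM and the thyroid hormone receptor THRA at 34.9.

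**Figure D4:**
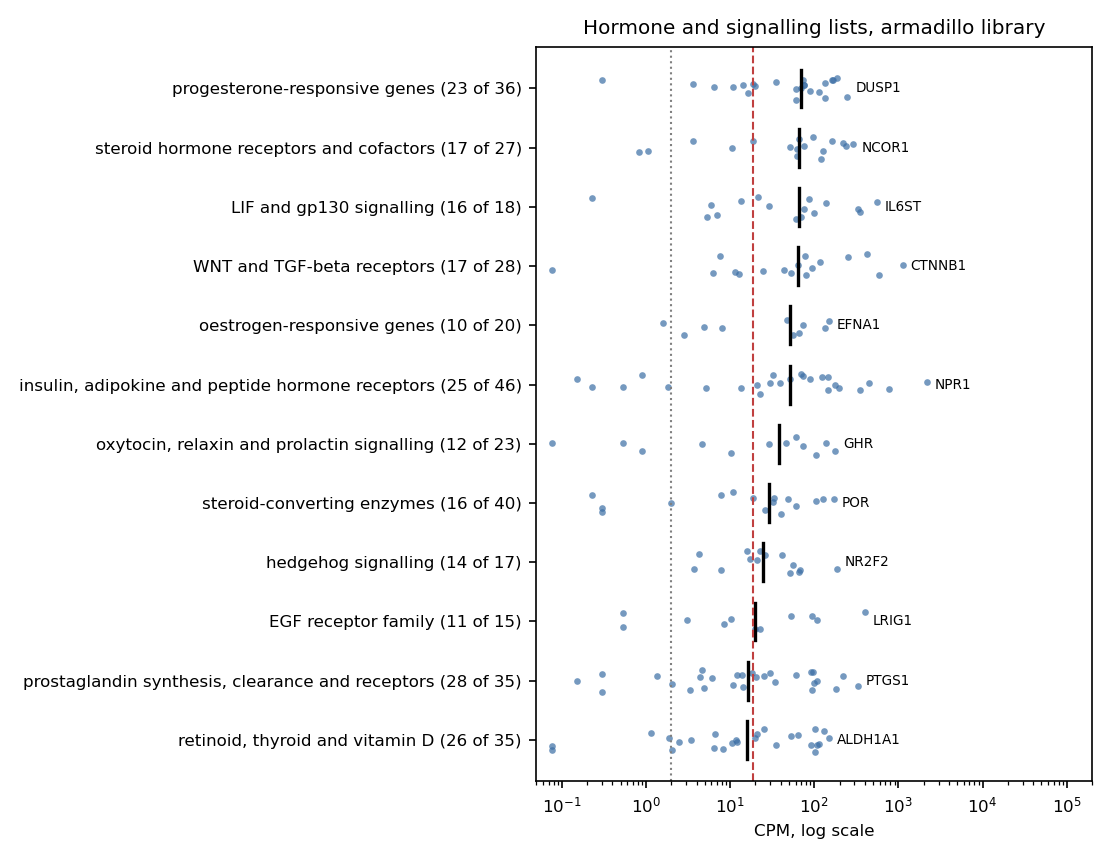
Each point is the CPM of 1 gene on a log axis, in rows by hormone or signalling list, with the listed members in brackets and the gene with most reads named. Black bars are list medians, the dashed line is the median of all lines (18.99 CPM) and the dotted line is 2 CPM. NPR1 at 2186 CPM is the point farthest right, and PGR and ESR1 have no point because they were not listed.

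Transcription factors were taken by family names of their symbols, which gave 334 lines. Of these 252 (75.4%) reached 2 CPM against 81.5% of all lines, 37 (11.1%) reached 100 CPM against 15.2%, and together they took 1.42% of the reads. EPAS1, the hypoxia-inducible factor of endothelium, was the only one at 1000 CPM or more, at 1237 CPM (95% interval 1219 to 1257). The stress-response factors NFE2L1 and NFE2L2 followed at 761 and 497 CPM, then ZEB1, which represses epithelial genes, at 365, the ETS factor ELK3 at 359.9 and STAT3 at 349. Others of the first 20 were BHLHE40 (262 CPM), USF1 (247), ETS2 (247), NFATC4 (234), STAT2 (213), CUX1 (189), HIF1A (189), NR2F2 (185), the muscle and growth factor SRF (167), FOS (164), USF2 (164), the endothelial factor ERG (159.7) and AHR (159), the receptor for dioxin-like ligands.

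**Figure D5:**
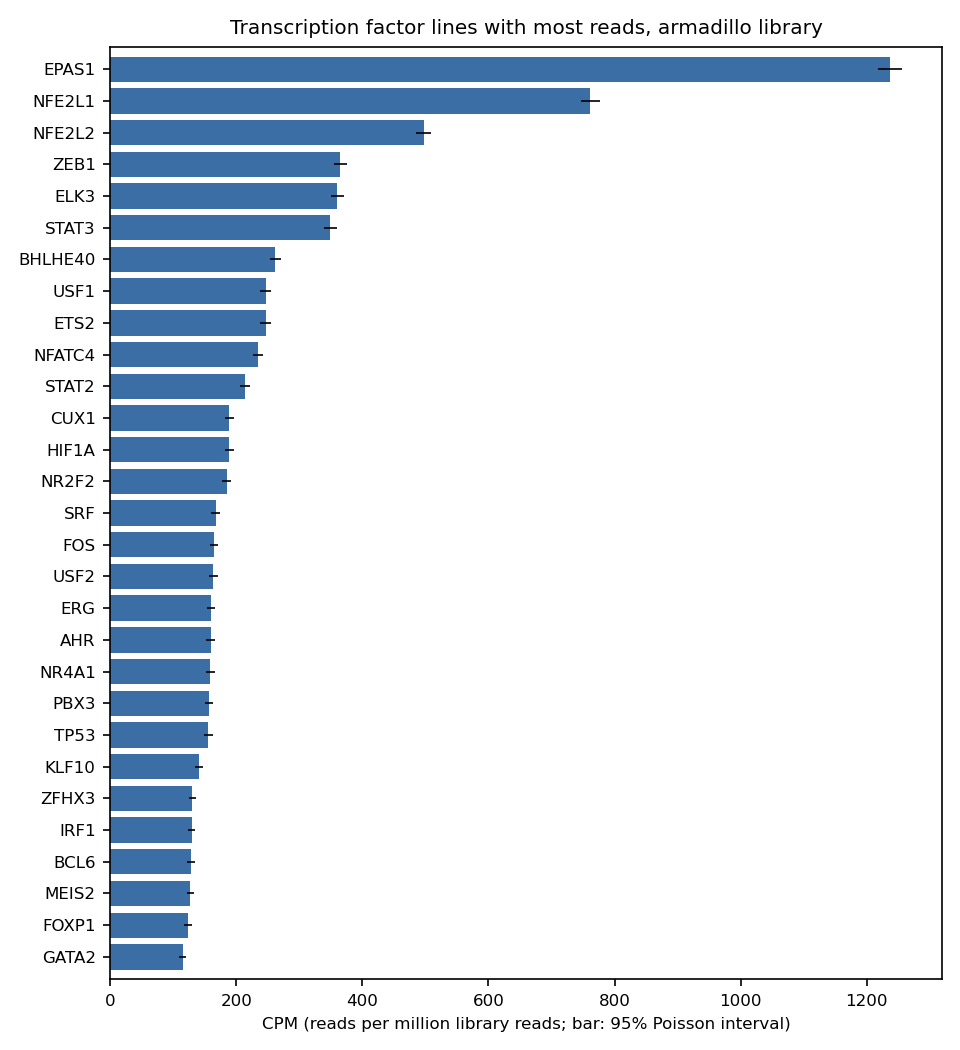
Horizontal bars give the CPM of 29 of the 30 transcription factor lines with most reads, from 0, with 95% Poisson intervals as thin lines. EPAS1 stands at 1237 CPM, NFE2L1 at 761 CPM, and the bars for ranks 7 and lower among these factors lie under 300 CPM (BHLHE40 at 262).

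Factors of uterine stroma were spread over the range. Of 35 members 26 were listed and 22 of these (84.6%) reached 2 CPM, against 81.5% of all lines. PBX3 stood at 157 CPM, MEIS2 at 127, GATA2 at 115, MEIS1 at 50.5 and EMX2, a factor of the female reproductive tract, at 30.03. MSX2 stood at 25.2 CPM and MSX1, its paralogue, at 2.42 CPM (95% interval 1.66 to 3.42). HOXA10, the HOX factor of the uterus, stood at 14.3 CPM (95% interval 12.3 to 16.5), and HOXA11, TWIST1, PRRX1 and CEBPB were not listed. Across the HOX clusters 20 of 39 genes were listed and 11 of these (55%) reached 2 CPM, under the 81.5% of all lines. They were led by HOXD10 at 37.1 CPM (95% interval 33.9 to 40.6), HOXD3 at 28.6 CPM and HOXD8 at 24.0.

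Factors of vessels took more reads than those of muscle, epithelium and leukocytes, by list medians. Endothelial factors had a median of 77.4 CPM, with BCL6B at 99.6 CPM, ETS1 at 77.4, HHEX at 46.3 and FLI1 at 43.7. SOX17, SOX18 and TAL1 were not listed. Smooth muscle factors had a median of 23.4 CPM, and after SRF came its cofactor MKL1 at 79.5 and MEF2D at 51.3. Epithelial factors had a median of 2.19 CPM, with GRHL1 at 57.3, ELF3 at 37.1 and FOXA2, the factor of uterine glands, at 1.29 CPM (95% interval 0.749 to 2.06). SOX9, PAX8 and FOXJ1 were not listed. Leukocyte factors had a median of 2.53 CPM, with BCL6, which other cell types also use, at 128 CPM, EBF1 at 16.9, LEF1 at 15.6, IKZF1 at 6.13 and IRF8 at 5.07. Among immediate early genes, which handling of tissue can induce, FOS stood at 164 CPM, NR4A1 at 159, EGR1 at 65.7 and MYC at 55.5, while JUN and ATF3 were not listed.

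Some symbols of this table do not occur in the tables of the other 2 species. Of 10655 usable symbols, 6352 occurred in both other tables, 2504 in the dog table only, 944 in the platypus table only and 855 (8.02%) in neither. The 855 held 8.66% of the reads, and 667 (78.0%) reached 2 CPM against 84.0% of all usable symbols. Their median was 14.1 CPM against 22.0 CPM over all usable symbols. A missing symbol is a matter of naming and annotation and no level in dog or platypus follows from it. FN1 is among the 855, and the dog table holds a line named FINC_CANFA, the entry name of fibronectin. A second match by the first part of such entry names, by other symbols or by accessions was found for 95 of the 855. FN1 is not among the 95, because FINC differs from its symbol, so the 760 without such a match can include genes that stand in another table under a different name.

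Among the 25 such symbols with most reads were general cell genes and several genes described above. They included FN1 and FTH1, the iron store ferritin heavy chain, at 2656 CPM (95% interval 2628 to 2684). The ribosomal protein genes RPL3, RPL6, RPS18, RPL23A and RPL29 stood at 2351, 2230.1, 2092, 1719.8 and 1118 CPM. HSP90B1, the chaperone of the endoplasmic reticulum, stood at 1551 CPM and the membrane protein gene TMEM176A at 1109. GPX3, the myosin light chain MYL6 (849 CPM), IGF2R, the endocytic receptor LRP1 (705), the helicase DDX5 (696), the vascular phosphatase PTPRM (652) and ECE1, which activates endothelin (604), came next. The list ended with the nuclear envelope gene SYNE2 (602 CPM), TGFBR2, the kinase CDC42BPB (559), the tryptophan transfer RNA ligase WARS (527), ezrin (EZR, 500.0), cofilin (CFL1, 497) and the integrin activator FERMT2 (463). Farther down, NOS2, the inducible nitric oxide synthase (152 CPM), the drug exporter ABCB1 (157), HLA-DPA1, an antigen-presenting chain (196), PDGFRA, CD163 and CD3E were also without the same symbol in the dog and platypus tables. Of the genes named here, EZR, NOS2, ABCB1 and CD3E are among those with a second match.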

How the data were processed

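Column-purified, DNase-treated RNA went into Illumina libraries, per the labels' protocols, and the submitters' processing notes name Bowtie. No source used here gives its version, the genome build or the annotation. The authors deposited raw counts of mapped reads per gene for armadillo and platypus and, per the file headers and values, estimated counts that are not all whole for dog. The last armadillo line, a total of 13218476 equal to the sum of the lines, was left out. Of the dog and platypus tables only the symbols were used, compared in upper case. All 3 tables have 1 library each. The number of unmapped columns of values was 0.

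CPM was reads divided by that total times 1000000. Levels have exact Poisson and shares exact binomial (Clopper-Pearson) 95% intervals, which cover counting error only. No source names molecular identifiers, so reads cannot be taken as independent molecules. No test was possible with 1 library. Gene lengths were not used. Coverage of the Poisson intervals was tested only on counts simulated with the same Poisson model, which cannot show how they fare with other error. Python 3.11.15, pandas 2.3.3, numpy 2.4.6 and scipy 1.17.1 were used.

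The members and the 53 gene lists were chosen with earlier results of these data known, and 8 further lists, the transcription factor name patterns and the removal of non-secreted list members after the values were seen. Symbols turned into dates by a spreadsheet (17) counted as unusable. Genes were named by rule: the 30 lines with most reads, list members (the first written and those with most reads), the 20 first transcription factors, the 25 first symbols missing from both other tables and 2 identifiers without a symbol. The genes of the last 8 lists and those named beyond the 25 were chosen after their values were seen. Some genes the rule names are not reported here.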

Additional observations from a re-analysis of the deposited data

How the results depend on the processing

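Counts of expressed genes moved by less than 1.5 times between limits: 10661 lines reached 1 CPM, 8919 reached 5 CPM and 9681 had a Poisson lower bound of 2 CPM or more, against 10050 at 2 CPM. Adding zinc finger names raised the transcription factor lines at 2 CPM or more from 252 to 461. Leaving lines without a symbol out of ranking and total gave 12.2% for the 10 lines with most reads. A library total that leaves out the 10 lines with most reads gave medians of 1242 CPM for smooth muscle and 489 for stromal fibroblast markers. For vascular endothelium markers it gave 368 CPM. The secreted share was 10.3% with the 10 lines, 3 of them secreted products, left out of both its reads and the total. Without the member with most reads the medians were 1067, 387 and 296 CPM and the secreted share was 10.7%, and with receptors and intracellular members kept in the lists (an alternative chosen after seeing the data) it was 14.001%. The medians of epithelium, leukocyte and trophoblast markers were 8.35, 4.90 and 8.61 CPM with the smaller total. Without the member with most reads they were 7.19, 4.12 and 6.92 CPM. The smaller total raises every median by the same factor, so it cannot change the order of the lists. The 6 planned medians per kilobase of coding length were not run, since no table of coding lengths was used. No paired analysis was possible because each species has 1 library. Genes under 2 CPM rest on fewer than 27 reads, and their order is not resolved at this depth.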

Other observations

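Lists chosen after the values were seen describe further gene groups of the library. Of 27 genes of natriuretic peptide, nitric oxide and cGMP signalling 22 were listed. Of these 21 (95.5%) reached 2 CPM, against 81.5% of all lines. Next to NPR1 and NOS3 stood genes through which cGMP relaxes smooth muscle. The potassium channel KCNMA1 stood at 365 CPM and its subunit KCNMB1 at 164. The calcium release channel ITPR1 stood at 293 CPM and its partner MRVI1, a target of the cGMP kinase, at 159.9. The soluble guanylate cyclase subunits GUCY1A3 and GUCY1B3 stood at 107 and 31.3 CPM and the kinase PRKG1 at 9.003. Of 24 channel and calcium genes 23 were listed, led by the cation channel TRPC4 at 561 CPM (95% interval 548 to 574) and the calcium pump ATP2A2 at 376 CPM, and the L-type channel CACNA1C stood at 46.7. Integrins were listed for 22 of 26 genes: the fibronectin receptor subunits ITGB1 and ITGA5 stood at 1153 and 1086 CPM, the collagen receptor subunit ITGA1 at 563 and ITGA9 at 397. Vessel genes outside the marker list included the phosphatase PTPRB, which restrains TEK, at 963 CPM, ELTD1 at 371 and STAB1, a scavenger receptor of sinusoidal vessels and macrophages, at 289.

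Other secreted products with many reads were the chitinase-like protein CHI3L1 at 1737 CPM (95% interval 1714 to 1759), the selenium carrier SEPP1 at 1311 CPM, the anti-angiogenic protease ADAMTS8 at 1192 CPM (95% interval 1173 to 1210.3), the basement membrane protein TINAGL1 at 967, C1QTNF3 at 814 and the heparan sulfatases SULF2 and SULF1 at 628 and 564. Around autotaxin, the lipid phosphatases PPAP2A and PPAP2B, which degrade lysophosphatidic acid, stood at 238 and 90.9 CPM, and no receptor gene of the LPAR name was listed. Annexins and S100 genes took 0.937% of the reads, led by ANXA2 (2167 CPM), S100A6 (1821) and ANXA1 (1813). Of transporters the iron exporter SLC40A1 stood at 241 CPM, the transferrin receptor TFRC at 22.8, the drug exporter ABCG2 at 150.3 and the glucose transporter SLC2A1 at 108. Cell cycle genes had a median of 20.01 CPM, near that of all lines, with BUB1 at 96.9 and CDK1 at 11.8. Of antigen presentation and interferon genes B2M and CD74 stood at 569 and 550.1 CPM, and MX1 at 94.9, and of hypoxia and glycolysis genes ENO1 stood at 1843, LDHA at 333 and CA9 at 0.908. Ribosomal protein genes were listed on 53 lines and took 4.90% of the reads. Among them RPL4 stood at 2788 CPM, whereas RPL10 had 1 read. Whether such a low line reflects read mapping or its gene model was not tested.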
